A study of Mus musculus with 2 samples.

Results

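Open chromatin at the promoters of long non-coding RNA (lncRNA) genes that stand apart from protein-coding genes was described in embryonic mouse hindbrain. The regions are the 150 bp DNase-seq peaks of replicate 1 that overlapped a replicate 2 peak by at least 1 bp, had their midpoint within 1 kb of a lncRNA transcription start site (TSS), and lay more than 5 kb from every protein-coding TSS. The lncRNA genes were those typed lincRNA, antisense or processed_transcript in GENCODE mouse release M21 (basic set), and the starts of all their basic transcripts counted. This rule gave 2241 peaks of the 111722 shared by both libraries, with 1503 lncRNA genes nearest to them. They are called lone lncRNA promoter peaks here, and some sit at a start inside the transcribed span of another gene.

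The study holds 1 group, hindbrain of B6NCrl mouse embryos at day 14.5, with male and female tissue pooled, as 2 biological replicates from separate tissue samples that carry the same donor label. No mutation, treatment, other stage or other tissue was included, so there is no contrast between conditions and no test between groups. Replicate 1 held 263679 peaks with a median score of 47 and replicate 2 held 148804 with a median of 30, and the read depth of both is unknown. Promoter peaks were shared at 6 of 6 neuronal genes (Tubb3 and Dcx among them), 4 of 4 neural progenitor genes and 9 of 9 genes of hindbrain position (such as Hoxa2, En2 and Atoh1), and at 1 of 13 genes of other tissues, Myod1.

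DNase I cuts DNA where nucleosomes are displaced, so a peak marks a stretch that regulatory proteins can reach. Active promoters are among the most accessible sites of a genome, above all those rich in CpG dinucleotides, where GC-box and NRF1 proteins bind. Many lncRNA genes start next to a coding gene and share its open promoter, whereas others have promoters of their own, and some start within enhancers. In the developing brain such genes include hosts of the microRNAs of neuronal differentiation and nuclear RNAs that act in cis on their neighbours.

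The sequences of member peaks at well-known lncRNAs are shown first, read from GRCm38 (mm10), 5′ to 3′ on the strand of the lncRNA gene. Capitals mark the letters that matched, on either strand, one of the consensus motifs searched. These were the GC box GGGCGG, the cyclic AMP response element (CRE) TGACGTCA, the NFY box AGCCAAT, the ETS site CCGGAAGT, the YY1 site AAGATGGC, the TATA box TATAAA, the X-box half-site GTTGCCATG, the E-boxes CAGCTG and CAGATG, the homeodomain core TAATTA, the SOX site AACAATGG, and the CTCF, NRF1, REST, NFI, ZBTB33, ZNF143 and AP-1 consensus by name. GC-box matches can overlap one another.
Malat1 (chr19:5802616-5802765, minus strand): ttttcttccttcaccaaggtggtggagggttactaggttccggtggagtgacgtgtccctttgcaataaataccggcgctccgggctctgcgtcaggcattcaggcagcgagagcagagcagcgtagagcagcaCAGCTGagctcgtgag
Snhg15 (chr11:6528756-6528905, minus strand): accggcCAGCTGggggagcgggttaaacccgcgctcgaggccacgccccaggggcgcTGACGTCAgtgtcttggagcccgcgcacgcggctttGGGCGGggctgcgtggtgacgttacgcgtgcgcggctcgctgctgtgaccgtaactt
Xist (chrX:103484176-103484325, minus strand): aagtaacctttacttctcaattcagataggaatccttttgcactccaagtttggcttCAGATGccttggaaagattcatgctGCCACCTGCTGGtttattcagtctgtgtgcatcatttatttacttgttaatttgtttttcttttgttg
Meg3 (chr12:109540816-109540965, plus strand): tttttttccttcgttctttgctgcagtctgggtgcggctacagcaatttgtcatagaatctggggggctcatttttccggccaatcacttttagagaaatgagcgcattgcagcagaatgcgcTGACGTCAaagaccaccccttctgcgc
Kcnq1ot1 (chr7:143296536-143296685, minus strand): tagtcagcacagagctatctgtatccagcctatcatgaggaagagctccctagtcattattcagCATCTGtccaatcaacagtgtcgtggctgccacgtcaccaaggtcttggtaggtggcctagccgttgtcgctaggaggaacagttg
The Malat1, Snhg15, Meg3 and Kcnq1ot1 peaks had their midpoints 19, 85, 114 and 62 bp upstream of a start. The Xist peak was centred 997 bp upstream, and its 150 bases held 0 CpG dinucleotides against 21 in the Snhg15 peak.

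Hosts of microRNAs are shown next, since these genes give rise to microRNAs of neural differentiation.
Mir9-3hg (chr7:79499896-79500045, plus strand): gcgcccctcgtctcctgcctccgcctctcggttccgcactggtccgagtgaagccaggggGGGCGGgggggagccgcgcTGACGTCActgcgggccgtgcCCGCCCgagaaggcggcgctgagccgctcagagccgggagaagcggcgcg
Mir124a-1hg (chr14:64588236-64588385, plus strand): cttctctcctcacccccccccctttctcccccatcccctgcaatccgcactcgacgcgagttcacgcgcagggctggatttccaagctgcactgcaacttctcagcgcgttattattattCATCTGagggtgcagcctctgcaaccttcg
Mir124-2hg (chr3:17793816-17793965, plus strand): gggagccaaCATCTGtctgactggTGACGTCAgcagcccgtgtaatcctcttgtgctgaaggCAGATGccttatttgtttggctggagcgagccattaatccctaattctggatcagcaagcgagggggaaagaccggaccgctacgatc
C130071C03Rik (chr13:83721156-83721305, plus strand): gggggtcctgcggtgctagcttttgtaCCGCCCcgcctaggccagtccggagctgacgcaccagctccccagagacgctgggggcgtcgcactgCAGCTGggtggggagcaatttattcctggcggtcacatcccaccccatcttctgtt
Mir99ahg (chr16:77237156-77237305, plus strand): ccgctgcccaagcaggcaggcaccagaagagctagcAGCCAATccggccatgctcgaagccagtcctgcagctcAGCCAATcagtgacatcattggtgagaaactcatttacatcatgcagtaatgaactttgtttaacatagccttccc
Mir9-3hg and Mir124-2hg both held TGACGTCA, 146 and 29 bp from a start by the peak midpoint, and both scored 121 in replicate 1 and 82 in replicate 2. The Mir99ahg peak held AGCCAAT at 2 places.

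Another set shows, for 5 motifs, the member with the highest mean score percentile among those that held it.
Gm17552 (chr19:4169476-4169625, plus strand): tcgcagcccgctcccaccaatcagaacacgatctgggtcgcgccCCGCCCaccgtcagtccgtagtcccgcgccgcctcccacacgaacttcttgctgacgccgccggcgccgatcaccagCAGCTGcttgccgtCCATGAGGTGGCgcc
Gm20732 (chr15:68363316-68363465, minus strand): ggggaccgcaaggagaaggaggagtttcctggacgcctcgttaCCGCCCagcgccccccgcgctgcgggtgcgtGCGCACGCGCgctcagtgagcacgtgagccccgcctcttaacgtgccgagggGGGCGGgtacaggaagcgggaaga
1700028E10Rik (chr5:151368656-151368805, plus strand): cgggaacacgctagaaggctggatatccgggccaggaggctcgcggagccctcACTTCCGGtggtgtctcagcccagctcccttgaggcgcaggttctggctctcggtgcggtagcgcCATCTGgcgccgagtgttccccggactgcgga
1700064M15Rik (chr12:99627916-99628065, minus strand): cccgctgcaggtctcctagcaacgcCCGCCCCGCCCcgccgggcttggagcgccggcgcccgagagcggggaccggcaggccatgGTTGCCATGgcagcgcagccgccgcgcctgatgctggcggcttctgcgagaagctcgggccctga
Gm31408 (chr9:31559616-31559765, plus strand): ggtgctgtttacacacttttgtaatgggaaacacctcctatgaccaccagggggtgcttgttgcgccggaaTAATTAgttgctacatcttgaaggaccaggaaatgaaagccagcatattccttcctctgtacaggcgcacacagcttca
Gm17552 carried the CTCF consensus, Gm20732 the NRF1 consensus, 1700028E10Rik the ETS site, 1700064M15Rik the X-box and Gm31408 the homeodomain core. A match describes letters only. Whether a factor was bound was not measured.

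The authors deposited a score with each peak, an integer of at most 150 whose scale is not stated. Scores are therefore given with their percentile, the rank among all peaks of the same library. Member peaks had a median score of 78 in replicate 1, with quartiles of 58 and 101, and of 39 in replicate 2, with quartiles of 27 and 58. These medians stood at the 80.6 and 66.2 percentile of the libraries. Shared peaks at protein-coding promoters stood higher, at 91.2 and 82.0, and shared distal peaks, more than 1 kb from every TSS, stood lower, at 73.6 and 55.1. The members thus ranked between the other 2 sets in both libraries.

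Of the 7415 lncRNA genes with at least 1 start more than 5 kb from every coding TSS, 1541 had a member peak. This share of 20.8% (95% Wilson interval 19.9 to 21.7, counting error only) compares with 64.6% of 21938 protein-coding genes (64.0 to 65.2) that had a shared promoter peak. LncRNA genes with every start within 5 kb of a coding TSS reached 66.7% of 2188 (64.7 to 68.6), close to the coding genes. By type, the lone lincRNA genes reached 19.6% of 5234, antisense genes 21.4% of 1735 and processed_transcript genes 32.5% of 446 (28.3 to 37.0). Replicate 1 alone gave 34.0% of the lone genes and replicate 2 alone 22.3%, whereas the coding genes changed less between libraries, at 69.9% and 65.7%.

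Peaks at these promoters recurred between libraries at an intermediate rate in one direction only. Of the 4297 replicate 1 peaks that met the distance rules, 2241 (52.2%, 50.7 to 53.6) were found in replicate 2, against 42.4% of all replicate 1 peaks and 70.8% at coding promoters. Of the 2871 such peaks of replicate 2, 2327 (81.1%, 79.6 to 82.4) were found in replicate 1, against 77.1% overall and 78.8% at coding promoters. The larger peak list of replicate 1 moves with these shares, and its part in them was not tested.

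Members were split into 2 classes by a cutoff on CpG content, a continuous measure. A peak was called CpG-rich where the 500 bp around it had a CpG observed/expected ratio of at least 0.6 and a GC content of at least 50%. By this measure 346 members (15.4%, 14.0 to 17) were CpG-rich, against 63.1% of shared peaks at coding promoters and 3.55% of distal ones. CpG-rich members had median scores of 111 and 71, at the 93.9 and 88.1 percentile, whereas the 1895 CpG-poor members had 75 and 35, at 78.7 and 60.4. CpG-rich coding promoters had 121 and 83, and CpG-poor coding promoters 71 and 36, so the CpG-poor sets were nearly level and the CpG-rich members lay below their coding counterparts.

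**Figure D1:**
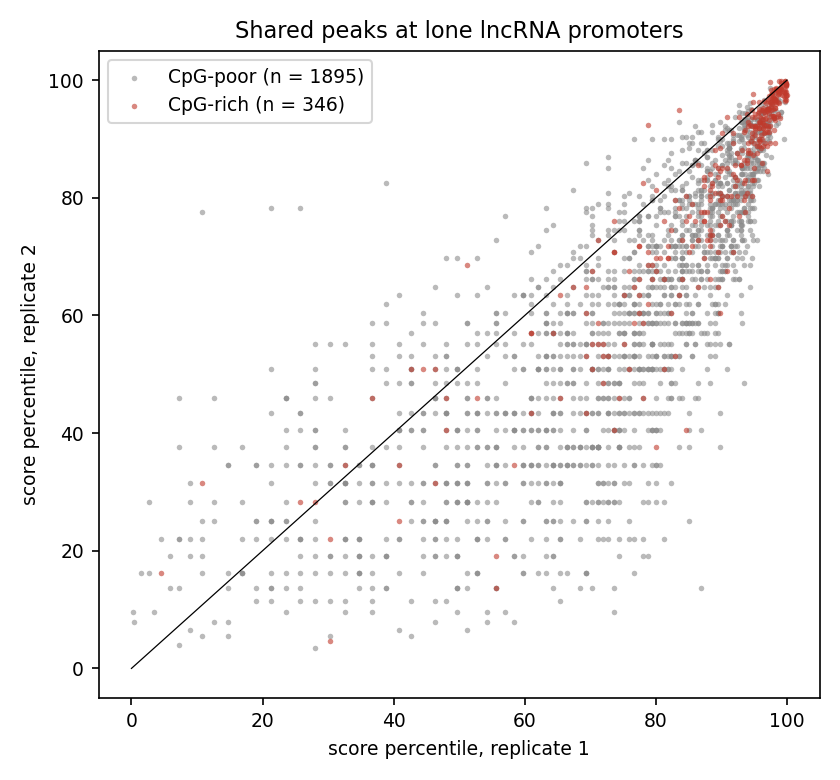
Score percentile of each member peak in replicate 1 (x axis) and in replicate 2 (y axis, its best overlapping peak), with CpG-rich members in red, CpG-poor members in grey and the line of equal percentiles in black. The red points gather at the upper right, around medians of 93.9 and 88.1, and most points lie below the line.

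Hotspots, the wider regions of enriched cutting, differed between the 2 classes as well. The −log10 q of a hotspot stops at a cap of 100, and 93.6% of CpG-rich members lay in a replicate 1 hotspot at the cap against 75.4% of CpG-poor ones. In replicate 2 the shares were 75.4% and 41.0%. The hotspot around a CpG-rich member had a median length of 1161 bp in replicate 1 and 820 bp in replicate 2, and around a CpG-poor member of 533 and 296 bp. Scores of the libraries were ranked alike over the members, with a Spearman correlation of 0.864 over 2241 peaks, 0.937 within the CpG-rich and 0.827 within the CpG-poor members. The points share 2 libraries, so these values are descriptions.

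The share of genes called rose with the CpG ratio of the gene start in both classes of gene, but by different amounts. A coding gene was called by any shared promoter peak, and a lone lncRNA gene by a member peak only. Below a ratio of 0.2, 10.4% of 3338 lone lncRNA genes and 10.5% of 4721 coding genes were called. Between 0.2 and 0.4 the shares were 21.6% and 31.3%, and between 0.4 and 0.6 they were 39.6% and 73.2%. At 0.6 to 0.8, 53.0% of 266 lncRNA genes (47.0 to 58.9) stood against 93.2% of 4557 coding genes (92.4 to 93.9). At 0.8 or more, 71.4% of 161 (64.0 to 77.8) stood against 97.8% of 6601 (97.5 to 98.2). The intervals of the 2 classes overlapped only in the lowest bin. A lone lncRNA gene was placed by its outermost start, which can lie within 5 kb of a coding TSS. A shared peak within 5 kb of a coding TSS did not count for it, and the part of this rule in the difference was not tested. The classes also differed in how their genes spread over the bins, since 45.0% of lone lncRNA genes fell in the lowest and 2.17% in the highest, against 21.5% and 30.1% of coding genes.

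**Figure D2:**
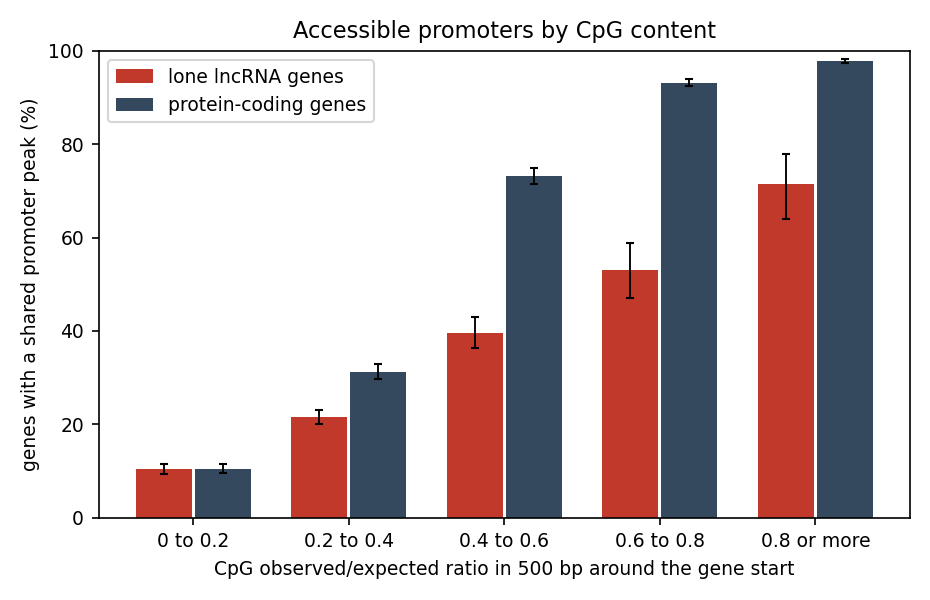
Share of lone lncRNA genes with a member peak (red) and of protein-coding genes with any shared promoter peak (dark blue) (y axis, percent) in 5 bins of the CpG observed/expected ratio in 500 bp around the gene start (x axis), with 95% Wilson intervals. The bars are level at 10.4% and 10.5% in the lowest bin and stand at 71.4% and 97.8% in the highest.

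Member peaks gathered at the annotated start. The midpoint lay within 250 bp of a TSS for 1028 members (45.9%, 43.8 to 47.9), against 56.0% of shared peaks at coding promoters, and upstream of it for 56.1%. Within 250 bp stood 60.4% of CpG-rich members (55.2 to 65.4), against 68.0% of CpG-rich coding promoter peaks (67.3 to 68.7). For CpG-poor peaks the order was the reverse, with 43.2% of members (41.0 to 45.5) against 35.4% at coding promoters (34.5 to 36.4). The 100 bp just upstream of the start held 89 of the 346 CpG-rich and 343 of the 1895 CpG-poor members, while the outermost upstream bin held 3 and 51.

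**Figure D3:**
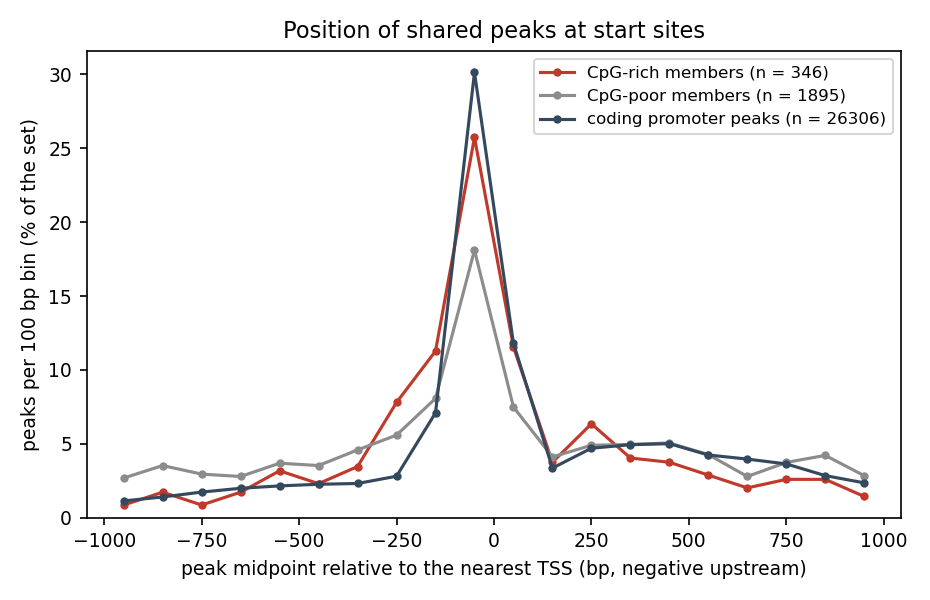
Share of each set of shared peaks (y axis, percent of the set) by the position of the midpoint relative to the nearest TSS in 100 bp bins (x axis, negative upstream). CpG-rich members (red, n = 346), CpG-poor members (grey, n = 1895) and coding promoter peaks (dark blue, n = 26306) have their highest bin just upstream of the start.

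The peaks with the highest mean percentile were nearly level with the top of both libraries. At 1700028E10Rik the peak scored 145 in replicate 1 and 126 in replicate 2, at Gm10433 147 and 122, and at Zswim6 145 and 125. The other 7 of the highest 10 were at 2410006H16Rik, 1700096K18Rik, 1810026B05Rik, Gm26670, 6720427I07Rik, Tmem250-ps and Snhg15, and all of the 10 were CpG-rich. Among CpG-poor members the highest was at Malat1, with 132 and 116, where the CpG ratio was 0.684 but the GC content 40.6%.

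Some members lie at starts that another annotation calls coding. Zswim6 and Tmem250-ps are typed as non-coding in the GENCODE set and protein_coding in RefSeq, as are 21 of the 1503 nearest genes matched by symbol, while 814 are lncRNA there and 656 have no entry. A RefSeq mRNA start, predicted models included, lay within 1 kb of 136 members (6.07%), and of 46 of the 346 CpG-rich members (13.3%, 10.1 to 17.3). Examples are the peak at 4932412D23Rik, 18 bp from a Zbtb20 start, and the peak at 4930430O22Rik, 17 bp from a start of Msi1, which encodes an RNA-binding protein of neural stem cells. With members also required to be more than 5 kb from RefSeq mRNA starts, 2068 remained, and 20.2% of the lone lncRNA genes had one.

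The 5 lists of known lncRNAs were read against the 20.8% of all lone lncRNA genes. Where no position is given, member scores are those of the highest member at the gene. Such a peak can lie up to 1 kb from a start. Of the nuclear and general lncRNAs, 13 of the 14 with a lone start had a member peak. Malat1, an abundant RNA of nuclear speckles, had its highest member, centred 999 bp upstream of a start, at 138 and 116. The Malat1 peak shown above, 19 bp upstream of a start, scored 132 and 116. Neat1, the scaffold of paraspeckles, had within 1 kb of its start a peak at 133 and 96 and another at 84 and 39, but a start of the antisense gene Frmd8os, 328 and 748 bp away, is nearer to both. Firre, an X-linked RNA of nuclear architecture, had 122 and 71. Dleu2 had 136 and 115, 1700020I14Rik 137 and 111, Mir22hg 148 and 109, and 2900097C17Rik 115 and 79. Lower in both libraries were Lncpint, with 91 and 51, and Pvt1, a neighbour of Myc, with 87 and 53. The exception was Gm26917, which had no promoter peak in either library. Tug1 and Rmrp start within 5 kb of a coding TSS and are not members, although the highest scores at their promoters were 142 and 116, and 147 and 119.

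The X-inactivation centre held members at each of its 4 listed genes. Xist, the RNA that coats the inactive X chromosome, had a peak centred 3 bp from a start that scored 65 and 27, and the CTCF-consensus peak shown above, which scored higher, 88 and 67. Jpx and Ftx, neighbours of Xist that favour its expression, had 125 and 85, and 133 and 101. Tsix, the antisense RNA that restrains Xist, had the weakest, 37 and 20. The tissue pooled both sexes, so the signal of active and inactive X chromosomes cannot be told apart.

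Hosts of small RNAs had a member peak at 16 of the 17 genes with a lone start. The hosts of small nucleolar RNAs were high in both libraries, with Snhg15 at 142 and 127, Snhg8 at 143 and 118, Snhg5 at 132 and 124, and Snhg6 at 145 and 104. Snhg17 had 126 and 104, Snhg12 129 and 97, and Snhg20 136 and 89. Mir17hg, host of a microRNA cluster of proliferating cells, had 121 and 97 at a peak with the CTCF consensus. Mir124a-1hg and Mir124-2hg, which host a microRNA abundant in neurons, had their highest peaks at 128 and 69, and 121 and 82. Mir9-3hg and C130071C03Rik, hosts of a microRNA of neural progenitors, had 121 and 82, and 130 and 84. Mir99ahg had 139 and 85 at a peak 912 bp downstream of a start. A330023F24Rik had 124 and 96, and Mir670hg 105 and 58. The lowest of the group was 2610307P16Rik with 67 and 33, and Mir155hg, host of a microRNA of activated immune cells, had a replicate 1 peak only, at 61.

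Imprinted lncRNAs had a member peak at 5 of the 11 genes with a lone start. Meg3, expressed from the maternal allele, had 117 and 72, and Kcnq1ot1, a paternally expressed antisense RNA, had 124 and 93. Airn, the paternally expressed antisense RNA at Igf2r, had 92 and 35. AI506816 had 80 and 42, and A330076H08Rik 93 and 38. Meg3 and Kcnq1ot1 were thus the higher of the 5 in both libraries, and the replicate 2 scores of the other 3 lay at or below 42. Rian, in the same cluster as Meg3, had a promoter peak in replicate 1 only, and H19 had peaks in each library, 56 and 22, that did not overlap. Mirg, Snhg14, Nctc1 and B830012L14Rik had none. A peak cannot be assigned to an allele here.

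Of the listed neural lncRNAs, 8 of the 15 with a lone start had a member peak. The highest were at 9530059O14Rik, with 139 and 92, Zfhx2os, with 130 and 78, Miat, a nuclear RNA of neurons, with 126 and 79, and Rmst, an RNA of neurogenesis that works with SOX2, with 112 and 68. Sox2ot, whose gene holds Sox2 in an intron, had 9 members, and its highest scored 96 and 64. Gm26871 had 115 and 55. Pantr2, a neighbour of the neural regulator Pou3f3, had 93 and 46, and the weakest was Celrr with 87 and 35. Dlx6os1, an RNA of forebrain interneurons, had no promoter peak in either library, nor had Dalir, Nrg3os and Lncenc1, and Carmn had one in replicate 1 only, at 65. Pantr1 and Crnde had shared promoter peaks, 143 and 114, and 144 and 104, but these lay within 5 kb of a coding TSS. Among Hox cluster lncRNAs only 3 had a lone start, and Halr1 was the 1 with a member, at 72 and 24, while Hotair had no peak and Gm53 had one in replicate 1 only.

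**Figure D4:**
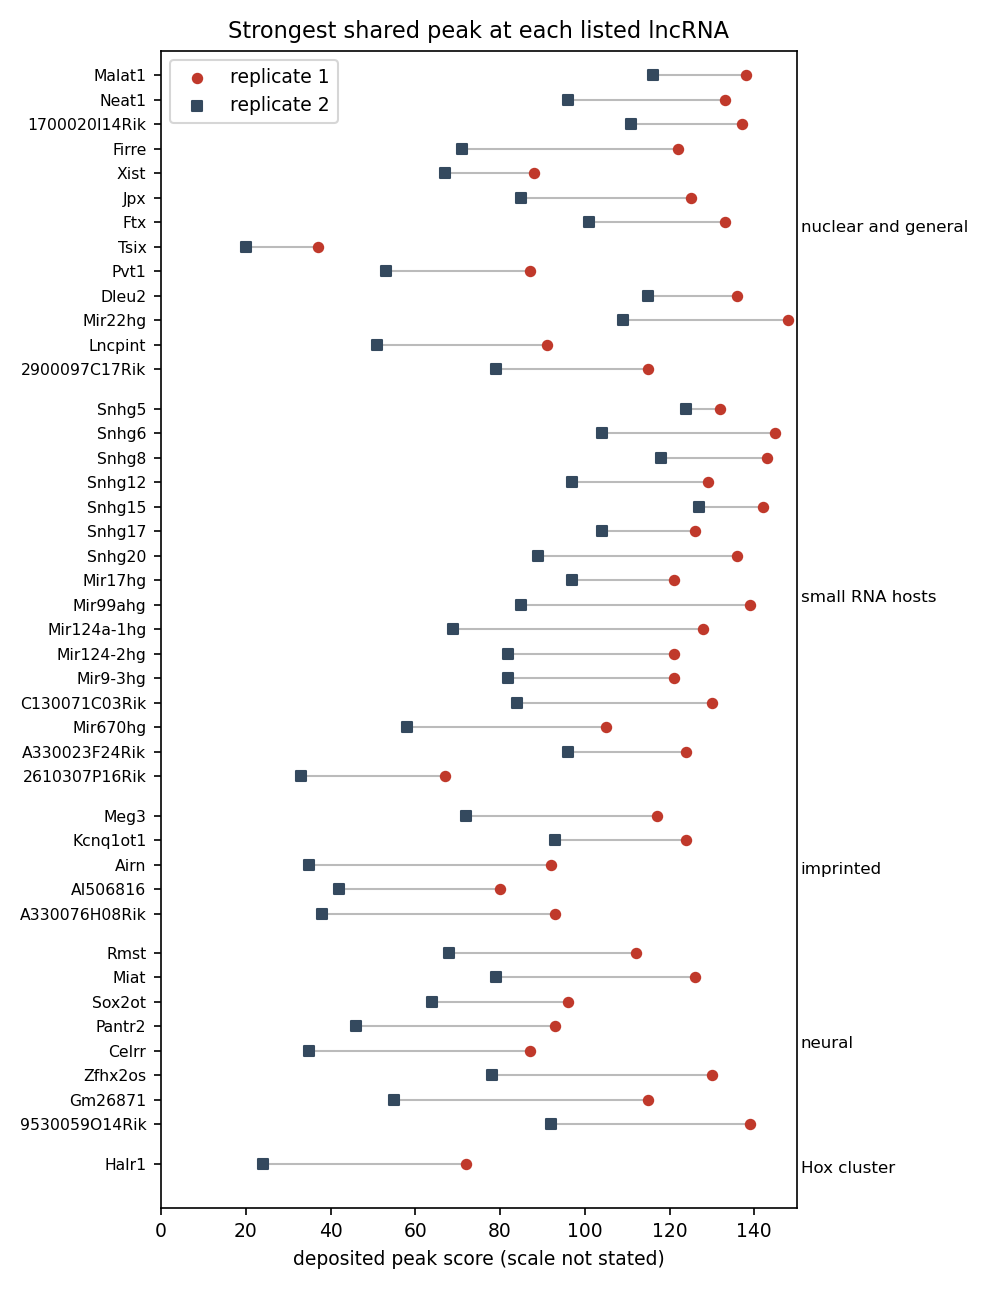
Deposited score (x axis) in replicate 1 (red circles) and replicate 2 (dark squares) of the member peak with the highest mean percentile at each listed lncRNA (y axis), grouped by list. Replicate 1 is the higher at every gene, and its scores run from 37 at Tsix to 148 at Mir22hg, those of replicate 2 from 20 at Tsix to 127 at Snhg15.

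Most genes had 1 member peak (991 of 1503) and 512 had 2 or more. Mir99ahg, a long host gene of microRNAs with several alternative starts, had 13, which scored 53 to 139 in replicate 1 and 25 to 87 in replicate 2. Next came 3110039I08Rik with 11, Sox2ot with 9, Mir124-2hg with 8 and 1810026B05Rik with 6. The deposited peaks of a library can overlap each other, and 82 members overlapped another member. Counted once per overlapping run, 2199 regions remained. The longest replicate 1 hotspots around a member were 6563 bp at Gm3764, 5660 bp at C130071C03Rik, 5368 bp at Gm13330, 5272 bp at Mir9-3hg and 4756 bp at Zswim6.

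Distance from coding genes varied widely, with a median of 49571 bp to the nearest coding TSS and quartiles of 20600 and 118746 bp. The farthest 4 members stood together at the C130073E24Rik start, up to 2243061 bp from the nearest coding TSS, that of Tenm3, and the strongest of them scored 109 and 59. A RefSeq Tenm3 start lay nearer, 1394927 bp from the outermost of the 4, whereas the Gm41219 member, next in distance, stood 1685569 bp from Olfm4 in both annotations. A midpoint lay inside the span of a protein-coding gene for 477 members (21.3%). The nearest coding gene belonged to a family of developmental regulators, a list taken by gene-name prefix, for 123 members (5.49%, 4.62 to 6.51), against 4.26% (4.11 to 4.41) of distal shared peaks more than 5 kb from a coding TSS. Counted by gene, this held for 5.32% of lone lncRNA genes with a member peak (4.31 to 6.56) and 4.15% of those without (3.67 to 4.69), and the intervals overlapped. The 4632428C04Rik peak, 56209 bp from Hes1, a repressor that maintains neural progenitors, scored 123 and 89, and the Gm47061 peak, 6053 bp from Tfap2a, scored 134 and 110.

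Motif content was set beside the CpG classes and the coding promoters. The GC box, the NRF1 consensus, the ETS site and the CRE each contain a CpG. Their shares in the CpG classes are therefore not independent of the split by CpG content. In CpG-rich members the GC box GGGCGG was found in 42.5% (37.4 to 47.7), against 55.4% of CpG-rich coding promoter peaks, and in 9.66% of CpG-poor members. The NRF1 consensus was in 4.91% of CpG-rich members (3.09 to 7.73) and 7.52% of their coding counterparts (7.13 to 7.93). The ETS site CCGGAAGT was in 2.89% (1.58 to 5.24) and 5.10% (4.78 to 5.45), and for both motifs the intervals overlapped. Some other motifs had the higher share in CpG-rich members, but of those given next with intervals only AP-1 had intervals that did not overlap. The CRE TGACGTCA was in 4.34% (2.64 to 7.03) or 15 peaks, against 2.42% (2.19 to 2.66) of CpG-rich coding promoter peaks, and AP-1 was in 2.60% (1.37 to 4.87) or 9 peaks, against 1.07% (0.921 to 1.23). TATAAA was in 2.89% (1.58 to 5.24) against 1.45% (1.28 to 1.65), CAGATG in 6.36% (4.24 to 9.44) against 4.24% (3.94 to 4.55), and CTCF in 4.34% (2.64 to 7.03) against 3.37% (3.10 to 3.65). The X-box and the homeodomain core were in 4 CpG-rich members each. The NFY box AGCCAAT was in 4.24% of all members and 5.72% of coding promoter peaks.

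Among CpG-poor peaks the members stood between coding promoters and distal sites for most of the motifs given here. Base composition had the same order. Median GC content was 52.2% at CpG-poor coding promoters, 49.2% in CpG-poor members and 46.6% in CpG-poor distal peaks. The median CpG ratios were 0.442, 0.321 and 0.248. The part of composition in the motif shares was not tested. The X-box and AP-1 had a higher share in members than in either set, but with intervals that overlapped those of distal peaks. The CTCF consensus was in 7.60% of CpG-poor members (6.49 to 8.88), nearer to the 5.24% of CpG-poor coding promoter peaks (4.82 to 5.71) than to the 13.2% of CpG-poor distal peaks (13.0 to 13.4). The E-boxes CAGCTG and CAGATG are sites of basic helix-loop-helix proteins such as the proneural factors. They were in 15.8% and 15.7% of CpG-poor members, 12.4% and 10.7% of CpG-poor coding promoter peaks, and 16.7% and 18.1% of CpG-poor distal peaks. The homeodomain core TAATTA was in 5.38% of CpG-poor members (4.45 to 6.49), 2.32% of CpG-poor coding promoter peaks (2.04 to 2.64) and 7.02% of CpG-poor distal peaks. The X-box half-site GTTGCCATG was in 2.16% of CpG-poor members (1.60 to 2.92), 0.876% of CpG-poor coding promoter peaks (0.709 to 1.08) and 1.60% of CpG-poor distal peaks (1.52 to 1.69). TATAAA was in 4.70% of CpG-poor members (3.83 to 5.74) and 3.81% of CpG-poor coding promoter peaks (3.45 to 4.21), and AP-1 in 3.11% (2.42 to 4.0) and 2.5% (2.21 to 2.83), so these intervals overlapped. For the NFY box, 4.06% of CpG-poor members stood against 4.53% of CpG-poor coding promoter peaks and 2.99% of CpG-poor distal peaks.

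**Figure D5:**
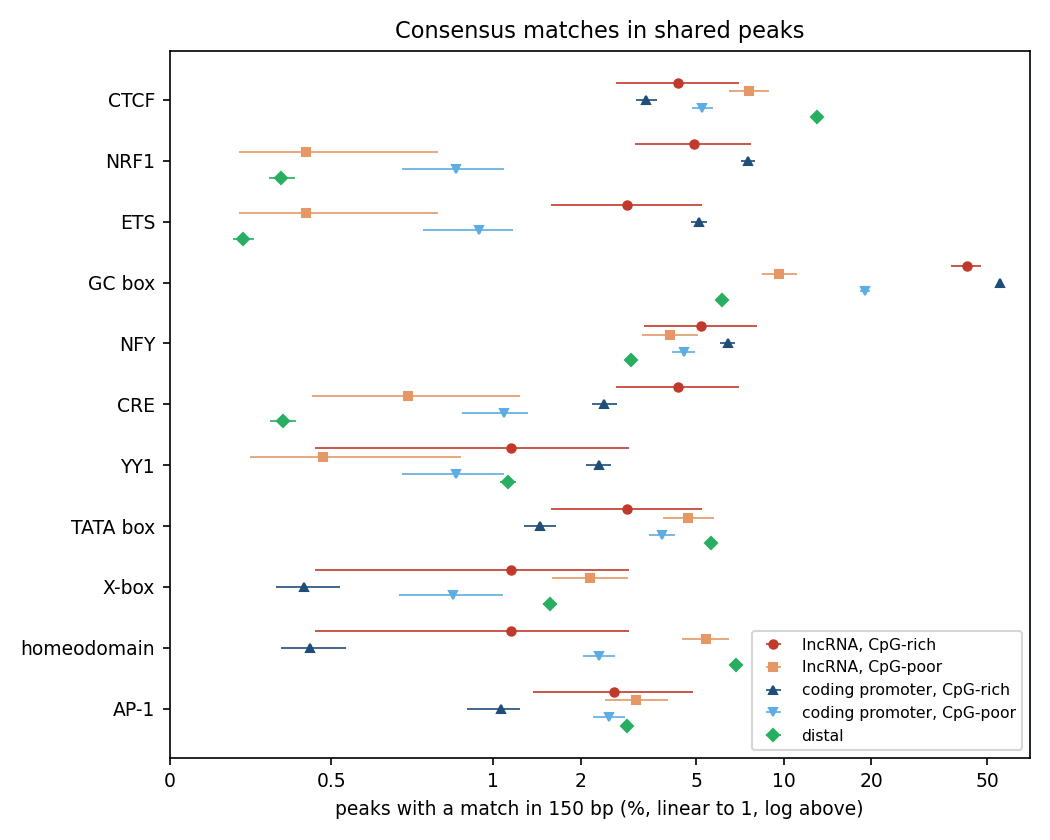
Share of peaks with a consensus match in 150 bp (x axis, percent, linear to 1 and logarithmic above) for 11 motifs (y axis) in CpG-rich and CpG-poor members, CpG-rich and CpG-poor coding promoter peaks and distal peaks, with 95% Wilson intervals. The GC box spans the widest range, from 6.12% of distal peaks to 55.4% of CpG-rich coding promoters, and the E-boxes and 5 rarer motifs are not drawn.

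The rarer motifs were matched in few members: AACAATGG in 15, AAGATGGC in 13, NFI in 5, ZNF143 in 2, ZBTB33 in 1 and REST in 0. At least 1 of the 18 motifs was found in 1225 members (54.7%), in 64.6% of coding promoter peaks and in 57.3% of distal peaks. Neither a CpG-rich sequence nor any of these motifs was found in 886 members (39.5%).

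Members masked over at least 50% of their bases as repeats numbered 57 (2.54%, 1.97 to 3.28), against 1.39% of coding promoter peaks and 2.70% of distal peaks. Among CpG-poor peaks the shares were 2.96% of members (2.28 to 3.82) and 2.88% at coding promoters (2.57 to 3.24). The strongest of them was at CR974462.6, which scored 126 and 94, and a Mir670hg peak with 94.7% of its bases masked scored 100 and 55. The largest gap between libraries was at Gm28822, with 90 in replicate 1 and 17 in replicate 2, followed by Gm15356, with 28 and 51. Of the 10 members with the largest gap, 8 ranked higher in replicate 1.

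The distance limits of the rule cut through a continuous range. Just inside 1 kb stood Gm11205, 999 bp from its start with 89 and 41, and just outside it Gm16365, at 1001 bp with 102 and 53. Just beyond 5 kb from a coding TSS stood Gm37634, 5022 bp from Zbtb37 with 48 and 27, and just within it AA465934, 4925 bp from Slfn14 with 137 and 104, which is not a member. The weakest members were Gm43397, Speer4cos, Gm4349, Gm6712 and Gm15138, with replicate 1 scores of 15 to 27.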

How the data were processed

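The authors called DNase-seq peaks and hotspots in each replicate on its own, from filtered mm10 alignments, according to notes deposited beside the files. Aligner, caller, versions and thresholds are not stated there or in the labels. The authors deposited a score per peak, whose scale is not stated, and a −log10 q-value per hotspot, capped at 100. On unplaced sequence and the mitochondrial genome, 253 peaks of replicate 1 and 303 of replicate 2 were not used. Peaks were joined to GENCODE M21 basic starts and GRCm38.p6 sequence with Python 3.11.15, SciPy 1.17.1 and pysam 0.24.0. A replicate 2 value is that of the best-scoring overlapping peak. The CpG bins of genes use the outermost start. Motifs were searched on both strands of the 150 bp peak. With 1 group of 2 samples no test was run, and intervals are 95% Wilson intervals over peaks or genes, which cover counting error only. The joins and the motif search were tested on simulated data. Genes named are the listed lncRNAs with a lone start, some others on the lists, and the extremes of score percentile, gap between libraries, hotspot length, peak number, distance, rule limits and motif. Other names (Tubb3, Dcx and the other marker genes, the examples near RefSeq starts, developmental regulators, CpG-poor and masked sites) were chosen after their values were seen. The members and lists were chosen with earlier results of these data known. Settings were changed for the window, overlap, coding distance, gene starts and types, score, hotspot, sequence window and library.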

Additional observations from a re-analysis of the deposited data

How the results depend on the processing

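Of 106 values under other settings, 76 stayed within the spread set for their result and 30 moved. For shares this spread was the standard deviation of the 2 single-library values. It was 8.22 points for lone lncRNA genes and 2.99 for coding genes, so the limits were unequal. A 500 bp promoter window gave 1536 members and 16.5% of lone lncRNA genes. Scores at or above the library median gave 1532 members and 15.6%. These values counted as within their limits although they were lower. With a 2500 bp promoter window there were 3677 members, 30.0% of lone lncRNA genes and 67.8% of coding genes were called, 11.6% of members were CpG-rich, 8.62% held the CTCF consensus and the Spearman correlation was 0.843. In hotspots at the q cap in both libraries these values were 1010, 10.4%, 55.2%, 25.3%, 13.1% and 0.807, the median percentiles were 91.2 and 83.1, and 1.49% were masked. With scores at or above the library median, 61.5% of coding genes were called, and 20.7% of members were CpG-rich, 9.27% held CTCF, 1.76% were masked and the correlation was 0.803. The CpG-rich share was 22.3% in a 150 bp window and 7.81% at a ratio of 0.75 with 55% GC, and the CTCF share was 8.57% in a 300 bp window. Leaving out a replicate gave 2871 to 4297 members, 22.3% to 34.0% of lone lncRNA genes, 65.7% to 69.9% of coding genes, CpG-rich shares of 9.89% to 14.0%, CTCF shares of 4.44% to 6.27% and masked shares of 2.37% to 2.96%, and the median replicate 1 percentile was 60.9 without replicate 2. The cause of these moves was not tested. In each setting that gave both shares, the coding share was above the lncRNA share. The settings without chromosome Y, with overlapping peaks counted once and with RefSeq mRNA starts were chosen after seeing the data. Their values stayed within the limit set for each result. No paired analysis was possible because there is 1 group. Read depth is unknown, so an absent peak cannot be told apart from a shallow library.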

Other observations

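Lone lncRNA genes were called at similar rates on most chromosomes. The share with a member peak ran from 18.2% on chromosome 10 to 30.0% on chromosome 17 among the autosomes and was 21% of 138 genes on the X chromosome. Chromosome Y was apart, with 1 of 551 genes called (0.181%), and without it 22.4% of 6864 lone lncRNA genes had a member peak. Peaks of every class were scarce on Y, which held 30 of the 111722 shared by both libraries. For the protein-coding class, the share called was 64.6% of 21938 with Y and 65.1% of 21755 without it. Whether the low count on Y is particular to lncRNA genes was not tested. The number of exons made little difference, with 22.4% of 294 genes with 1 exon, 19.6% of 2796 with 2 and 21.4% of 4325 with 3 or more.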
